A study of Mus musculus with 6 samples.

Results

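The neutrophil granule genes described here are 10 protein-coding genes, each found by its symbol in the deposited gene table: Mpo, Elane, Prtn3 and Ctsg, whose products fill azurophil granules, and Ltf, Camp, Ngp, Lcn2, S100a8 and S100a9, which encode granule and cytosolic proteins of later stages. They are 10 of 55291 genes in the table, and all 10 were among the 15478 genes that passed the count filter and were tested. RNA came from marrow flushed out of the femurs of 3 P2rx7 knockout mice (here knockouts A, B and C) and 3 wild-type mice (WT 1, 2 and 3), aged 6 to 8 weeks, with 1 library per mouse. The product of P2rx7 is a cation channel opened by extracellular ATP, and the study's title names ATP sensing by this channel, bone ageing and mesenchymal stromal cells. The labels give no treatment, sex or strain, and they do not say how the allele was made or whether the channel was deleted in all cells.

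Neutrophils form in the marrow, and their granule proteins are made in order. At the promyelocyte stage the cell makes myeloperoxidase and the serine proteases of the azurophil (primary) granules. Later, as myelocytes and metamyelocytes, the cells stop making these and make lactoferrin, cathelicidin and the other proteins of the specific (secondary) granules, and fill the cytosol with S100A8 and S100A9. Because each protein is packed at the stage when its mRNA is present, within the neutrophil lineage the azurophil transcripts mark early cells and the later transcripts mark cells further along. Which cells carried these transcripts in the libraries described here was not tested.

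Total counts per library were 18716704 to 22382281 in knockouts and 20037343 to 23575652 in wild types. P2rx7 itself had 876, 722 and 748 counts in the knockouts and 1207, 1410 and 1453 counts in the wild types, so its reads were lower in every knockout but not absent (log2 fold change -0.67 ± 0.05 SE, edgeR adjusted p = 0.0109). The tissue label was set against marker genes. Hbb-bs, a globin gene of red cell precursors, had 0, 0 and 5 counts in the knockouts and 0 in every wild type. Ly6g, the surface marker of mature mouse neutrophils, had 1, 6 and 5 counts in the knockouts and 2, 3 and 12 in the wild types, and Cxcr2, the chemokine receptor of mature neutrophils, had 3, 8 and 12 against 9, 11 and 17. C1qa, a macrophage gene, stood at 1785, 1761 and 1540 CPM (counts scaled to library size) in the knockouts and 1602, 1628 and 1530 CPM in the wild types, and Col1a1, a collagen gene of stromal and bone cells, at 8302, 7715 and 8402 CPM against 8515, 10546 and 10207 CPM. The labelled tissue is therefore bone marrow in which defining genes of red cells and mature neutrophils are at or near 0 while macrophage and stromal genes are abundant. The labels name no culture, sorting or depletion step. Low counts of genes typical of other tissues, whose source was not tested, set the libraries of knockouts B and C apart. Counts of Gh, the pituitary gene of growth hormone, were 23 in knockout A and 0 in both of these, against 54, 82 and 75 in the wild types, and Alb, the liver's albumin gene, had 0, 46 and 36 counts over the knockouts against 0 in every wild type.

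All 10 members are expressed at a small fraction of the library. Together they took 0.0117%, 0.0684% and 0.0590% of all counts in knockouts A, B and C and 0.0325%, 0.0125% and 0.0508% in WT 1, 2 and 3. Ranked by mean FPKM, a level per length of transcript, S100a9 was number 395 and Ngp number 752 of the 15478 tested genes, while Camp and Ltf were numbers 7635 and 7816. The lowest count of any member in any library was 42, for Camp in knockout A.

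The azurophil genes lie on several chromosomes of the mouse build GRCm38. Mpo, which encodes the peroxidase that makes hypochlorous acid, lies on the plus strand of chromosome 11 from 87793581 to 87804413, in 15 exon blocks. Elane, which encodes neutrophil elastase, lies on the plus strand of chromosome 10 from 79886247 to 79888215, in 5 exon blocks. Prtn3, the gene of proteinase 3, lies on the same strand from 79874476 to 79883174, so that 3.073 kb separate it from Elane. Ctsg, which encodes cathepsin G, lies on the minus strand of chromosome 14 from 56099881 to 56102574. Prtn3 shares 159 of its 1732 exon bases with Plppr3 on the opposite strand, and the use of strand in counting is not given in the sources used here, so its reads and those of Plppr3 cannot be fully told apart. Plppr3 had at most 367 counts in any library, with a log2 fold change of 0.98 ± 0.32 SE.

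The sequence just before each azurophil gene is shown because these 4 genes varied together from library to library in the values that follow. The letters are from RefSeq (GRCm38.p6), 5' to 3' on the gene's own strand, and end 1 base before the first exon base of the deposited gene model that comes after them. Capitals mark matches, on either strand, to GAGGAA, a core bound by the factor PU.1 and other ETS proteins, to TTNNGNAA, a form of the C/EBP site, or to TGTGGT, the core of RUNX sites. The stretches are chr11:87793534-87793580 for Mpo, chr10:79886062-79886246 for Elane, chr10:79879417-79879613 for Prtn3, which lies within an intron of its longer deposited model, and chr14:56102575-56102824 on the minus strand for Ctsg.
Mpo: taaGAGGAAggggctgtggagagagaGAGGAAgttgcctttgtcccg
Elane: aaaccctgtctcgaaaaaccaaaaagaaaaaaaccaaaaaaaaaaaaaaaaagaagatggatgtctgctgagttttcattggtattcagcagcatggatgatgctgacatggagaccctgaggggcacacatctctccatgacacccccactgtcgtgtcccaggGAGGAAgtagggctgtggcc
Prtn3: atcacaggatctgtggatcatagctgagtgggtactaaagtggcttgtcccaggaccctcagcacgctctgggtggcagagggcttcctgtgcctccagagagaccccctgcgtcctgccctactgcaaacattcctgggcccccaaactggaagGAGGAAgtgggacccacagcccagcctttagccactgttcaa
Ctsg: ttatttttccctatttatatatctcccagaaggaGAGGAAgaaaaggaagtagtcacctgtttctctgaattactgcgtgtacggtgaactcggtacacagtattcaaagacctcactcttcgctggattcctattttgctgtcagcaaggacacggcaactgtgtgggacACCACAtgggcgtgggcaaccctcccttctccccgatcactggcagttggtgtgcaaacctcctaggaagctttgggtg
Over the whole window of 250 bases before the RefSeq start, GAGGAA was found in 4 of 4 azurophil genes, and in 23.3% of 32851 RefSeq promoters. TTNNGNAA was found in 0 of 4, against 36.8% of promoters, and TGTGGT in 1 of 4, against 14% of promoters. In Elane the GAGGAA match began 85 bases before the RefSeq start, in Prtn3 95, and in Mpo and Ctsg 224 and 216. These matches are letters only, and binding was not measured.

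Mpo had 14.6, 80.4 and 64.3 FPKM in knockouts A, B and C, against 10.2, 4.85 and 33.7 FPKM in WT 1, 2 and 3. Knockouts B and C were above every wild type, but knockout A was below WT 3, so the groups overlapped. The mean was 53.1 ± 34.3 FPKM in knockouts, against 16.3 ± 15.4 FPKM in wild types (± SD of 3 mice each), a log2 fold change of 1.71 ± 0.76 SE whose 95% interval ran from -0.03 to 3.46 (edgeR quasi-likelihood test with Benjamini-Hochberg adjustment over all tested genes, adjusted p = 0.306). In bulk RNA, a difference in the number of cells of a type and a difference in RNA per cell cannot be told apart.

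Elane had 6.24, 54.1 and 35.6 FPKM in the knockouts, against 6.63, 2.55 and 25.3 FPKM in the wild types. Here knockout A was just below WT 1, and knockouts B and C were the highest libraries. The log2 fold change was 1.47 ± 0.86 SE (95% interval -0.50 to 3.44, edgeR adjusted p = 0.429), with means of 32.0 ± 24.1 FPKM in knockouts, against 11.5 ± 12.1 FPKM in wild types (± SD of 3 mice each).

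Prtn3 had 8.60, 52.3 and 39.8 FPKM in the knockouts, against 6.50, 3.54 and 20.4 FPKM in the wild types. Ctsg had 6.99, 43.9 and 29.9 FPKM in the knockouts, against 5.64, 3.09 and 16.7 FPKM in the wild types. Both showed the order of Mpo: knockouts B and C highest, WT 3 next, then knockout A, WT 1 and WT 2. The log2 fold change was 1.73 ± 0.73 SE for Prtn3 (95% interval 0.04 to 3.41, edgeR adjusted p = 0.290) and 1.66 ± 0.72 SE for Ctsg (95% interval 0.01 to 3.31, edgeR adjusted p = 0.298).

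None of the 4 azurophil genes passed the adjusted threshold of 0.05, and none had every knockout above every wild type, as 11.5% of all tested genes did. By unadjusted p below 0.05, Prtn3 and Ctsg passed in the edgeR fit, where 16.6% of all tested genes did. The median log2 fold change of the azurophil genes was 1.69, and that of all tested genes was 0.00. The estimates therefore stood well above 0 with intervals so wide that the lower ends lay at or near no difference, except for Elane, whose interval reached -0.50.

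**Figure D1:**
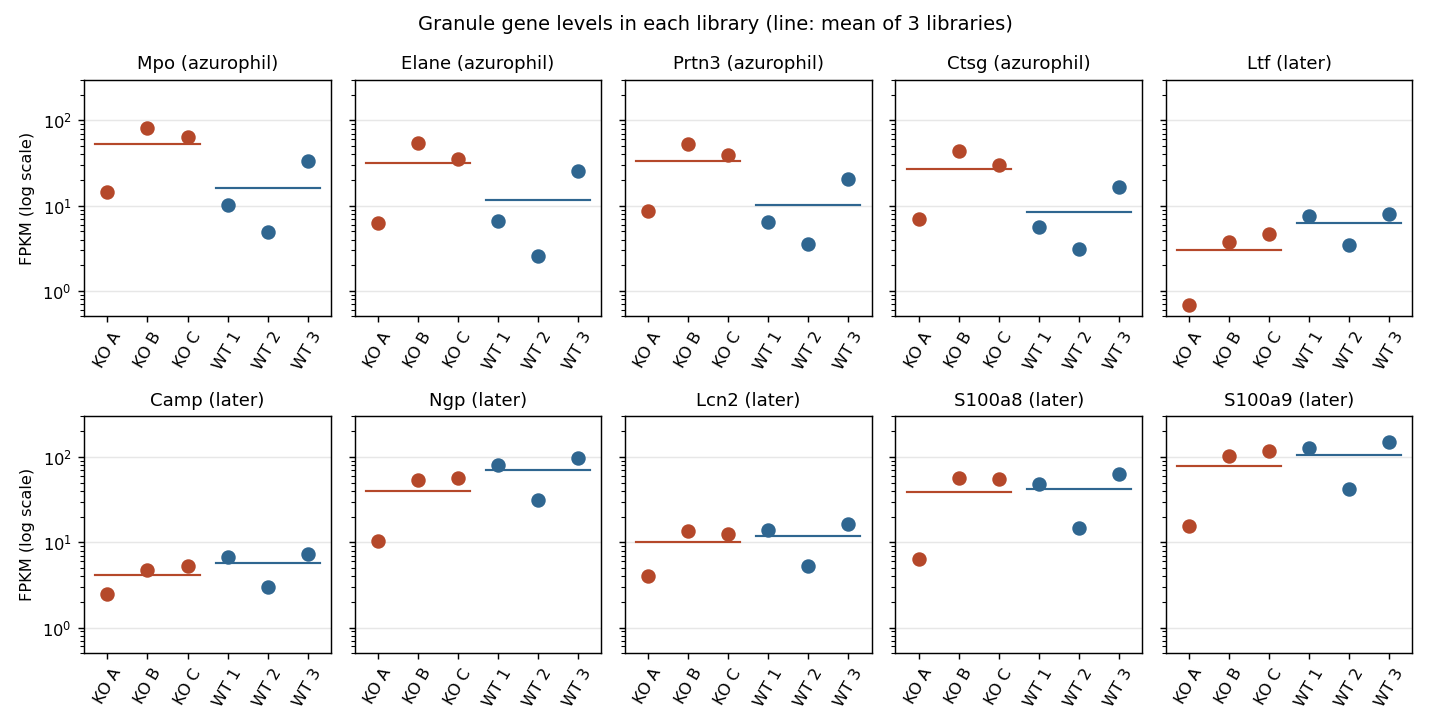
Level of each granule gene in each library, in FPKM on a log axis, with knockouts (KO) in red left of wild types (WT) in blue and a line at the mean of 3 libraries. In the azurophil panels knockouts B and C lie above all wild types, with Mpo at 80.4 and 64.3 FPKM against 4.85 to 33.7 FPKM; in the later panels knockout A is the lowest library, with Ngp at 10.4 FPKM.

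The later genes lie on chromosomes 2, 3 and 9. Ltf, which encodes the iron-binding protein lactoferrin, lies on the plus strand of chromosome 9 from 111019271 to 111042767, and Ngp, which encodes neutrophilic granule protein, on the plus strand of the same chromosome from 110419747 to 110423012. Camp, the gene of the antimicrobial peptide cathelicidin, lies on its minus strand from 109847379 to 109849617. Lcn2, which encodes lipocalin 2, a protein that binds bacterial siderophores, lies on the minus strand of chromosome 2 from 32384633 to 32388252. S100a8 and S100a9, whose products pair as the calcium- and zinc-binding protein calprotectin, lie on chromosome 3 from 90668978 to 90670035 and from 90692632 to 90695721, 22.6 kb apart.

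The upstream stretches of 3 later genes are shown for contrast with the azurophil ones, with the same capitals, at chr9:111019042-111019270 for Ltf, chr9:110419558-110419746 for Ngp and chr3:90695722-90695971 on the minus strand for S100a9.
Ltf: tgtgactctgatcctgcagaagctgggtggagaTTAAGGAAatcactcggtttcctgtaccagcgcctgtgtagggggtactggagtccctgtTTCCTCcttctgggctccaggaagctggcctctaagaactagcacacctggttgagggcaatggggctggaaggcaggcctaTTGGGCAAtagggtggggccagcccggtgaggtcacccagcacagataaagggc
Ngp: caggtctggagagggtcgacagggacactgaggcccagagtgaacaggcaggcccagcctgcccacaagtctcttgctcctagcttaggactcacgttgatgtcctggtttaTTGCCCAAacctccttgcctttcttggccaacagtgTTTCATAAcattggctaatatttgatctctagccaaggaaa
S100a9: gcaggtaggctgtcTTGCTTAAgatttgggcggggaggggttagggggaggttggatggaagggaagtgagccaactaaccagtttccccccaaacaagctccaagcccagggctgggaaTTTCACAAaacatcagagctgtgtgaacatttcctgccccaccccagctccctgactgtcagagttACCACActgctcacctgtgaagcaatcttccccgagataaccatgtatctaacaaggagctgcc
TTNNGNAA was found in the windows of 5 of 6 later genes, all but Camp, against 0 of 4 azurophil genes and 36.8% of all promoters. GAGGAA was found in 3 of 6 (Ltf, Lcn2 and S100a8) and TGTGGT in 1 of 6 (S100a9). None of the matches overlapped another.

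Ltf had 0.681, 3.71 and 4.64 FPKM in knockouts A, B and C, against 7.57, 3.46 and 7.87 FPKM in WT 1, 2 and 3. Knockout A was lowest, and knockouts B and C lay between WT 2 and the other wild types. The mean was 3.01 ± 2.07 FPKM in knockouts, against 6.30 ± 2.47 FPKM in wild types (± SD of 3 mice each), a log2 fold change of -1.07 ± 0.56 SE (95% interval -2.36 to 0.22, edgeR adjusted p = 0.381).

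Ngp had 10.4, 53.5 and 57.6 FPKM in the knockouts, against 80.9, 31.2 and 98.3 FPKM in the wild types. Camp had 2.50, 4.72 and 5.26 FPKM in the knockouts, against 6.64, 3.02 and 7.30 FPKM in the wild types. Both had WT 1 and WT 3 highest and knockout A lowest, with WT 2 below knockouts B and C. The log2 fold change was -0.79 ± 0.59 SE for Ngp (95% interval -2.16 to 0.58, edgeR adjusted p = 0.542) and -0.44 ± 0.37 SE for Camp (95% interval -1.30 to 0.42, edgeR adjusted p = 0.598).

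Lcn2 had 4.06, 13.5 and 12.7 FPKM in the knockouts, against 13.9, 5.32 and 16.4 FPKM in the wild types. Its log2 fold change was -0.23 ± 0.49 SE (95% interval -1.37 to 0.90, edgeR adjusted p = 0.854). Knockouts B and C were close to WT 1, and knockout A was close to WT 2.

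S100a8 had 6.44, 56.3 and 55.3 FPKM in the knockouts, against 48.2, 14.8 and 62.9 FPKM in the wild types. S100a9 had 15.7, 102 and 118 FPKM in the knockouts, against 127, 42.8 and 152 FPKM in the wild types. In both, knockouts B and C were within or just below the range of the wild types' upper libraries, and knockout A was again lowest. The log2 fold change was -0.09 ± 0.71 SE for S100a8 (95% interval -1.73 to 1.55, edgeR adjusted p = 0.965) and -0.44 ± 0.66 SE for S100a9 (95% interval -1.97 to 1.08, edgeR adjusted p = 0.782).

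None of the 6 later genes passed, also by unadjusted p, and none had every knockout below every wild type, as 10.4% of all tested genes did. Their median log2 fold change was -0.44. Over both sets, 0 of 10 members were called by edgeR at an adjusted p below 0.05, where 0.103% of all tested genes were called (9 higher and 7 lower in knockouts), and 2 of 10 passed at an unadjusted p below 0.05. DESeq2 and limma-voom called 0 of 10, with 0 also at an unadjusted p below 0.05. When all 30301 genes with a count were kept in the fit in place of the filtered set, Mpo, Prtn3 and Ctsg passed at adjusted p of 0.0345, 0.0262 and 0.0306, in a fit that called 3.2% of its genes; the log2 fold changes stayed at 1.70, 1.71 and 1.65.

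**Figure D2:**
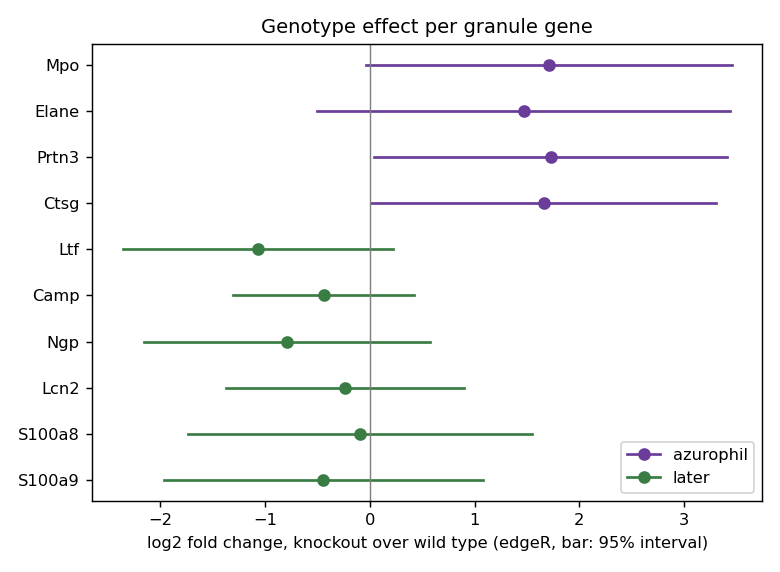
Log2 fold change of knockout over wild type for each granule gene (point) with its 95% interval (bar), from edgeR, azurophil genes in purple and later genes in green. The azurophil points lie between 1.47 and 1.73 and the later points between -1.07 and -0.09, and 8 of the 10 bars cross 0.

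The spread within a genotype was large for all members. Within the knockouts, the SD of log2 CPM ranged from 1.35 to 1.65 for the azurophil genes and from 0.57 to 1.79 for the later genes, against a median of 0.10 over all tested genes. Within the wild types it ranged from 1.22 to 1.64 for the azurophil genes and from 0.67 to 1.11 for the later genes, against a median of 0.11. Knockout A and WT 2 were the low libraries of their genotypes for both sets. Between the highest and lowest library of a genotype, S100a8 differed 8.74-fold in knockouts and 4.26-fold in wild types, and Elane 8.67-fold and 9.94-fold; Camp differed least among the knockouts, 2.10-fold, against 2.42-fold in wild types.

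Because the low libraries were the same for both sets, the balance between the sets was also taken within each library. The summed FPKM of the 4 azurophil genes was 36.4, 231 and 170 in knockouts A, B and C, against 29.0, 14.03 and 96.2 in WT 1, 2 and 3. The summed FPKM of the 6 later genes was 39.8, 234 and 253 in the knockouts, against 285, 101 and 344 in the wild types. Neither sum separated the genotypes.

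The share of the azurophil genes in the summed FPKM of all 10 was 47.8%, 49.6% and 40.1% in knockouts A, B and C, against 9.24%, 12.2% and 21.8% in WT 1, 2 and 3. Every knockout was above every wild type, including knockout A, the library with the lowest level of later genes. The mean share was 45.8 ± 5.07% in knockouts and 14.4 ± 6.58% in wild types (± SD of 3 mice each). By counts, the azurophil genes held 1732 of 2624 in knockout A (Wilson 95% interval of the share 64.2 to 67.8%), 8818 of 12800 in knockout B (68.1 to 69.7%) and 7123 of 11609 in knockout C (60.5 to 62.2%), against 1174 of 6521 in WT 1 (17.1 to 19.0%), 658 of 2946 in WT 2 (20.9 to 23.9%) and 4464 of 11835 in WT 3 (36.8 to 38.6%). These intervals cover counting error only, and the differences between mice of one genotype exceed them.

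**Figure D3:**
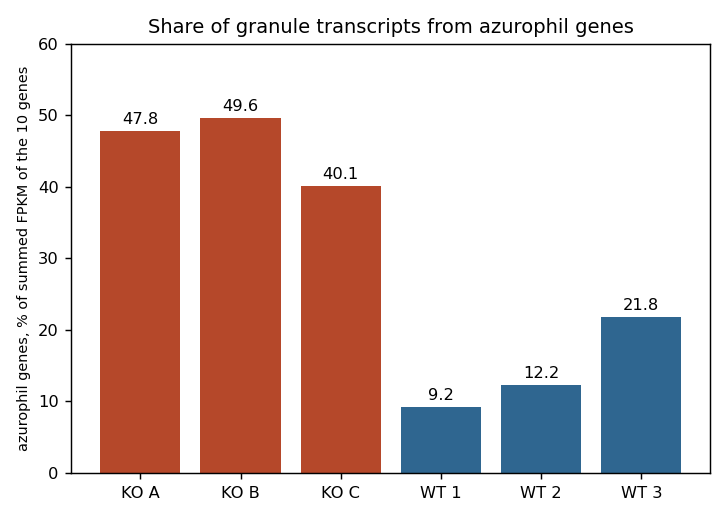
Share of the 4 azurophil genes in the summed FPKM of the 10 granule genes, in percent, 1 bar per library. The knockouts (red) stand at 40.1 to 49.6% and the wild types (blue) at 9.2 to 21.8%.

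On the log2 scale, with each gene weighted alike, the mean log2 CPM of the azurophil genes minus that of the later genes was 1.33, 1.83 and 1.25 in knockouts A, B and C, against -1.52, -1.18 and -0.04 in WT 1, 2 and 3. The value was above 0 in all knockouts and below 0 in all wild types, but CPM is not corrected for gene length, so its sign does not say which set had more transcripts. Per length, the ratio of summed FPKM, azurophil over later, was 0.916, 0.985 and 0.669 in the knockouts, against 0.102, 0.140 and 0.279 in the wild types, so the later genes had the higher sum in every library. The mean difference was 1.47 ± 0.31 in knockouts and -0.91 ± 0.78 in wild types (± SD of 3 mice each), so that the genotypes lay 2.38 apart, and 1.29 separated the lowest knockout from the highest wild type. No test is given for this score, because the 10 genes were chosen with results of these data known. Without knockouts B and C, the libraries that stand apart by Gh and Alb, knockout A alone lay 2.24 above the mean of the wild types. That is 1 library against 3, and the part of the set of libraries in the score was not tested.

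Where knockout A alone was set against the wild types, the levels of the single genes looked different. The azurophil estimates were then below 0, with log2 fold changes of -0.16 for Mpo, -0.89 for Elane, -0.25 for Prtn3 and -0.29 for Ctsg, and the later estimates were -3.21 for Ltf, -2.76 for Ngp, -2.78 for S100a9, -2.71 for S100a8, -1.55 for Lcn2 and -1.18 for Camp (edgeR, none passing an adjusted p of 0.05, with 1 knockout library that is assumed to vary like the wild types). In knockouts B and C the azurophil genes were above the wild types and all 6 later genes were within the wild-type range. In knockout A all 6 later genes were below every wild type, and the azurophil genes were within the wild-type range. Against WT 2 alone, the low library of the wild types, knockout A differed in both sets. Its summed FPKM was higher for the azurophil genes (36.4 against 14.03) and lower for the later genes (39.8 against 101). What the difference in balance came from was not tested.

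**Figure D4:**
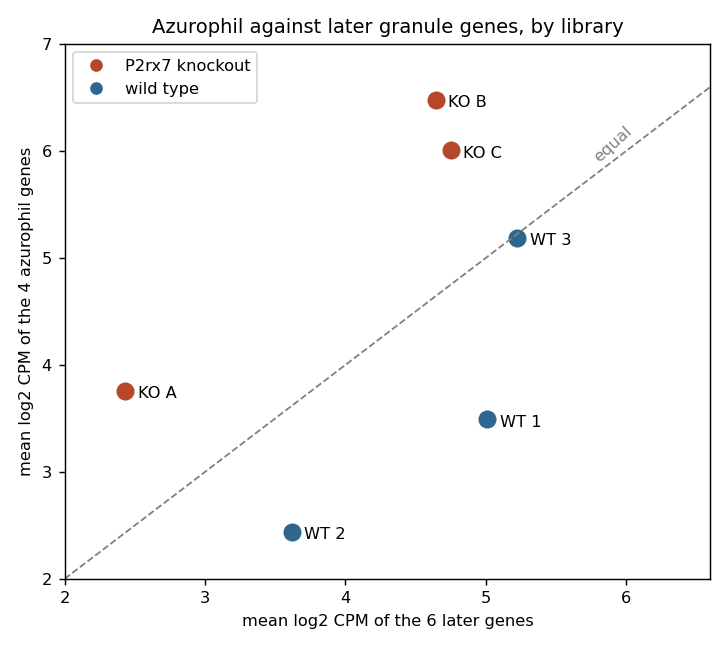
Mean log2 CPM of the 4 azurophil genes (vertical) against that of the 6 later genes (horizontal), 1 point per library, knockouts red and wild types blue; on the dashed line both are equal in CPM, which is not corrected for gene length. Knockout A (3.76 azurophil, 2.43 later) lies at the lower left and knockouts B and C (6.48 and 6.00 azurophil) at the top, all above the line, and WT 3 (5.19 azurophil, 5.22 later) lies at it.

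The contrast did not rest on one pair of genes. Of the 24 ratios of an azurophil gene to a later gene, 23 had every knockout above every wild type, and the difference of the genotype means of the log2 ratio ran from 1.85 (Elane over Lcn2) to 3.19 (Mpo over Ltf), with a median of 2.26. The exception was Elane over Camp, at 1.65, 3.86 and 3.11 in knockouts A, B and C, against 0.37, 0.13 and 2.15 in WT 1, 2 and 3. For Elane over Lcn2 the gap was nil in practice: -0.79, 0.59 and 0.08 in the knockouts, against -2.46, -2.43 and -0.79 in the wild types. The widest gap of the ratios of Elane was that to Ltf, at 1.35, 2.05 and 1.13 in the knockouts, against -1.98, -2.21 and -0.12 in the wild types. The 24 ratios are built from 10 genes and 6 libraries and are not independent of each other. How often ratios of other tested genes separate the genotypes was not counted, for these or for the ratios within a set. For single genes, 11.5% of those tested had every knockout above every wild type.

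Within a set the ratios differed less. Of the 6 ratios between azurophil genes, 0 separated the genotypes, and the genotype means differed by 0.05 to 0.24 on the log2 scale. Of the 15 ratios between later genes, 6 separated the genotypes, with differences of 0.02 to 1.09. The later genes were thus less uniform than the azurophil ones, and Ltf and Ngp had the lowest estimates among them while S100a8 and Lcn2 had the highest. Camp, of specific granules, and S100a9, of the cytosol, both stood at -0.44, with SE of 0.37 and 0.66. Such errors are too wide to order the later genes by the place of the product.

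**Figure D5:**
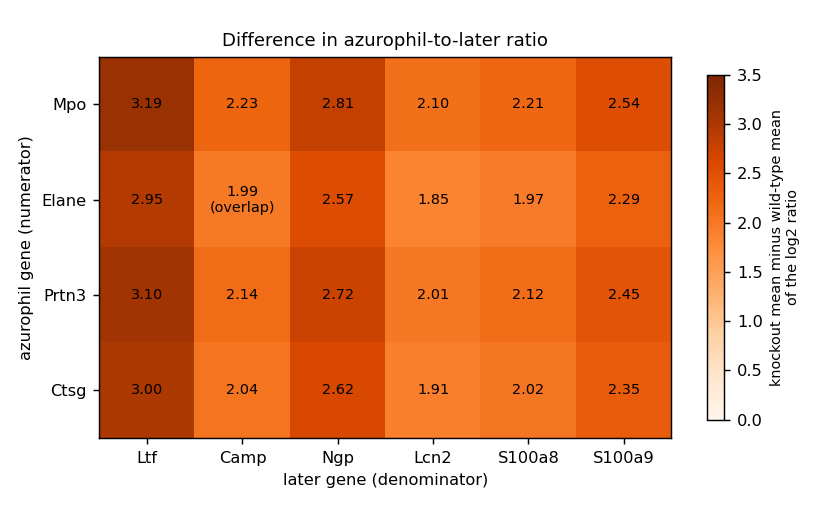
Knockout mean minus wild-type mean of the log2 ratio of each azurophil gene (rows) to each later gene (columns), from CPM, n = 3 libraries each. Values run from 1.85 to 3.19, ratios to Ltf are the highest in each row, and the one ratio whose groups overlap, Elane over Camp, is marked.

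As a description over 6 libraries, which share their depth and make-up between genes, log2 CPM of the azurophil genes was correlated at Pearson's r of 0.988 to 0.999 and Spearman's rho of 0.943 to 1 (6 pairs). Among the later genes r was 0.854 to 0.986 and rho 0.771 to 1 (15 pairs), and between the sets r was 0.172 to 0.712 and rho 0.200 to 0.771 (24 pairs). Once each gene's genotype mean was taken off, r between the sets was 0.855 to 0.939. Without knockout A and WT 2, the libraries farthest from the median, r was 0.990 to 0.999 among azurophil genes and -0.09 to 0.990 among later genes, and between the sets it was -0.85 to 0.69. The close correlation among azurophil genes thus held without these libraries, while that of some later pairs rested on them.

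The genes most like the azurophil mean, among 9727 non-member genes with a mean of at least 10 CPM, were Pdlim2 (r = 0.998), Tmem229b (r = 0.992) and Ms4a3 (r = 0.991), each with rho of 1 over the 6 libraries. Here and for the later mean, r was picked as the highest of 9727 values over 6 libraries. It is therefore high by selection and serves as a description only. Ms4a3, a membrane protein gene of granulocyte and monocyte progenitors, had 5.31, 25.3 and 22.4 CPM in the knockouts, against 3.26, 1.33 and 10.4 CPM in the wild types (log2 fold change 1.81 ± 0.72 SE, edgeR adjusted p = 0.270). Pdlim2 and Tmem229b varied far less, with Pdlim2 at 68.3, 80.7 and 78.2 CPM against 65.8, 62.3 and 73.7 CPM. The genes most like the later mean were Rapgef3 (r = 0.975), Pigg (r = 0.973) and Chil3 (r = 0.973), each with rho of 0.829. Chil3, which encodes a chitinase-like protein of neutrophil precursors and macrophages, had 18.1, 117 and 98.8 CPM in the knockouts, against 115, 31.5 and 117 CPM in the wild types.

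None of the other genes tied to azurophil granules passed. Of 9 listed and tested, 0 were called and 2 passed at unadjusted p, Ms4a3 and Srgn, near the 16.6% of all tested genes that did. All 9 had a log2 fold change above 0, as 7924 of 15478 tested genes had, with a median of 0.40, but those of Gusb (0.02 ± 0.06 SE), Cd63 (0.06 ± 0.05 SE) and Fcnb (0.29 ± 0.92 SE) were close to 0 or within their error. Srgn encodes serglycin, the proteoglycan that packs granule proteases, and had 59.2, 89.2 and 81.6 CPM in the knockouts, against 56.7, 49.8 and 67.7 CPM in the wild types. Ctsc, whose product activates the serine proteases, had 542, 625 and 575 CPM in the knockouts, against 514, 515 and 559 CPM in the wild types. Gusb, a lysosomal enzyme gene expressed in most cells, had 338, 340 and 363 CPM in the knockouts, against 357, 341 and 327 CPM in the wild types, with no separation.

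Of the other specific granule genes, 10 of 11 were tested and 0 were called, with a median log2 fold change of -0.20. Lyz2, the lysozyme gene that macrophages also express strongly, had 5508, 5046 and 5471 CPM in the knockouts, against 6305, 5505 and 5294 CPM in the wild types. Anxa1, an annexin also made by many cells, had 418, 409 and 408 CPM in the knockouts, against 493, 542 and 415 CPM in the wild types. The genotypes did not overlap for 3 genes, which were chosen after their values were seen and did not point one way. Among the 10 tested, 2 had every knockout above every wild type and 1 below, as 11.5% and 10.4% of all tested genes did. Mmp8, the neutrophil collagenase, had 9.89, 30.7 and 24.5 CPM in the knockouts, against 54.0, 36.9 and 31.3 CPM in the wild types, with every knockout below every wild type (log2 fold change -0.92 ± 0.36 SE, edgeR adjusted p = 0.269). Hp, whose product haptoglobin binds haemoglobin, had 593, 628 and 479 CPM in the knockouts, against 390, 156 and 354 CPM in the wild types, with every knockout above every wild type (log2 fold change 0.92 ± 0.30 SE, edgeR adjusted p = 0.208). Cyba, a subunit of the NADPH oxidase, also had every knockout above, with a log2 fold change of 0.10 ± 0.05 SE.

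Genes of gelatinase granules and mature neutrophils were mostly at low level. Of 18 listed, 17 were in the table and 12 were tested; 0 were called, 0 were higher and 3 lower at unadjusted p (1272 of 15478 tested genes were lower at that p), and the median log2 fold change was -0.06. No untested gene of this list exceeded 17 counts in any library. The tested genes of highest level were Adam8, a metalloprotease gene, at 573, 506 and 558 CPM in the knockouts against 613, 640 and 443 CPM in the wild types, and Itgam, the integrin CD11b of myeloid cells, at 160, 139 and 134 CPM against 179, 173 and 150 CPM. Both genes are also expressed by macrophages.

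Among the 10 transcription factors of granulocyte formation, 0 were called and the median log2 fold change was 0.12. Cebpa, needed for the step into the granulocyte lineage, had 356, 362 and 314 CPM in the knockouts, against 327, 216 and 287 CPM in the wild types. Spi1, which encodes PU.1, had 239, 250 and 218 CPM in the knockouts, against 238, 221 and 238 CPM in the wild types. Myb, a factor of progenitors named after its values were seen, followed the azurophil genes, with 3.60, 14.9 and 13.4 CPM against 2.21, 1.76 and 7.16 CPM (log2 fold change 1.50 ± 0.62 SE, edgeR adjusted p = 0.282). Cebpe, the factor of the specific granule stage, also named after its values were seen, had only 3, 30 and 24 counts in the knockouts and 13, 4 and 29 in the wild types.

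Signals that act on granulocyte precursors were measured as well. Of 15 cytokines, chemokines and receptors, 12 were tested and 0 were called. Csf3, the gene of G-CSF, was untested with 2, 1 and 1 counts in the knockouts and 1, 4 and 1 in the wild types, and Csf2, the gene of GM-CSF, had 0 counts in all 6 libraries. Cxcl12, the chemokine that retains neutrophils in marrow, had 4021, 4897 and 4702 CPM in the knockouts, against 2696, 1327 and 3168 CPM in the wild types, above every wild type in every knockout (log2 fold change 0.92 ± 0.28 SE, edgeR adjusted p = 0.192). Csf2ra, a GM-CSF receptor chain, had 95.8, 99.9 and 93.9 CPM in the knockouts, against 105, 101 and 98.4 CPM in the wild types. Of 14 inhibitors, receptors and binding partners of granule proteins, 12 were tested and 0 were called, with a median log2 fold change of 0.20. The tested genes of highest level were Hp, given above, and Bsg, a receptor of S100A9, at 540, 553 and 535 CPM in the knockouts against 552, 590 and 576 CPM.

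Genes of other marrow cells varied with the azurophil genes to different degrees, and their part in the results was not tested. In the megakaryocyte list 7 of 8 genes were tested, 0 were called and the median log2 fold change was 1.04, while its summed level was 261 to 346 FPKM in knockouts, against 276 to 341 FPKM in wild types, carried by Pf4, which had 170, 194 and 179 CPM in the knockouts, against 239, 203 and 164 CPM in the wild types. Ppbp, a platelet chemokine gene, had 21.4, 68.1 and 57.7 CPM in the knockouts, against 9.82, 11.7 and 41.9 CPM in the wild types, the library order of the azurophil genes but for WT 1 and WT 2. In the list of stem and progenitor genes 8 of 8 were tested and 0 were called, with a median of 0.28 and a sum of 32.7 to 35.8 FPKM in knockouts, against 25.1 to 32.6 FPKM in wild types. Sox4, the transcription factor gene of highest level in it, had 86.9, 95.8 and 103 CPM in the knockouts, against 78.8, 89.1 and 105 CPM in the wild types (log2 fold change 0.06 ± 0.11 SE), with no separation. Mecom (-0.73) and Procr (-0.19), named after their values were seen, had log2 fold changes below 0. Kit, the stem cell factor receptor, had 77.2, 65.2 and 50.4 CPM in the knockouts, against 28.3, 6.69 and 28.0 CPM in the wild types (log2 fold change 1.62 ± 0.43 SE, edgeR adjusted p = 0.167).

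The monocyte list, whose cells share a precursor with neutrophils, had 10 of 10 genes tested and 0 called, a median log2 fold change of -0.13, and a sum of 1108 to 1143 FPKM in knockouts, against 951 to 1044 FPKM in wild types. F13a1, a coagulation factor gene also made by macrophages, had 1652, 1418 and 1383 CPM in the knockouts, against 1778, 1303 and 1535 CPM in the wild types, and Ctss, a lysosomal protease gene, had 1096, 1184 and 1139 CPM against 960, 990 and 872 CPM. At unadjusted p, 1 gene of the list was higher (Ctss), where 1292 of 15478 tested genes were, and 3 were lower, where 1272 were. Those lower were Cx3cr1 (log2 fold change -1.57), S100a4 (-0.49) and Vcan (-0.25). Every knockout was below every wild type for Cx3cr1 and above for Ctss, as for 10.4% and 11.5% of all tested genes. Ly6c2 and Ccr2, the classical monocyte genes, and the 3 lower genes were named after their values were seen. Ly6c2 had 5.04, 40.2 and 28.0 CPM in the knockouts, against 11.1, 6.82 and 28.3 CPM in the wild types, and Ccr2 had 9.71, 53.7 and 41.6 CPM against 17.4, 15.3 and 37.3 CPM. In both, as in all 10 members, knockout A was the lowest knockout and WT 3 the highest wild type. In the macrophage list 15 of 15 genes were tested and 2 were called, where 0.103% of all tested genes were. Both were lower in knockouts: Vsig4 (log2 fold change -1.98, edgeR adjusted p = 0.0142) and Cd163 (-0.74, edgeR adjusted p = 0.0486). The list did not point one way, with a log2 fold change above 0 in 10 of 15 genes and a median of 0.12. Every knockout was above every wild type in 4 of its genes and below in 2, where 11.5% and 10.4% of all tested genes were. The summed level of the list was 6091 to 6828 FPKM in knockouts, against 5864 to 5979 FPKM in wild types.

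The stromal list had 15 of 15 genes tested and 0 called, with a median log2 fold change of 0.26 and a log2 fold change above 0 in 12 genes. At unadjusted p, 7 genes were higher and 2 lower, where 1292 and 1272 of all 15478 tested genes were. Every knockout lay below every wild type in 1 gene, as in 10.4% of all tested genes, and above in 7 genes, as in 11.5%. Among these 7 were the receptor gene Lepr (1.49), the adipokine gene Adipoq (1.47), the transcription factor gene Ebf3 (0.80) and Kitl, the gene of stem cell factor (0.72), named after their values were seen. The summed level ran the other way, at 4166 to 4451 FPKM in knockouts, against 4511 to 5069 FPKM in wild types, with Col1a1 at a log2 fold change of -0.26 and Col1a2 at -0.09.

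The lymphoid and erythroid lists rest on few genes, and none of them had a called gene. In the T and NK list 3 of 10 genes were tested, with a median log2 fold change of 2.13. Nkg7, a granule protein gene of cytotoxic cells, had 0.58, 3.14 and 2.16 CPM in the knockouts, against 0.35, 0.17 and 0.78 CPM in the wild types (log2 fold change 2.13 ± 0.67 SE, edgeR adjusted p = 0.204), and its log2 CPM had r of 0.974 with the azurophil mean over the 6 libraries. Klrb1c, which encodes NK1.1 and was named after its values were seen, had every knockout above every wild type, with a log2 fold change of 2.39 ± 0.69 SE, and Cd4 had -0.48 ± 0.19 SE. In the B lineage list 2 of 12 genes were tested, with at most 16 counts in any untested gene: Cd74, the invariant chain of MHC class II, at a log2 fold change of -1.04 ± 0.21 SE and Cd79b at 0.13 ± 0.25 SE. The erythroid list had 3 of 13 genes tested, with at most 7 counts in any untested gene. Tfrc, the transferrin receptor of dividing cells, was at a log2 fold change of 0.21 ± 0.05 SE, and Epor, the erythropoietin receptor, at 0.62 ± 0.22 SE. In the list of eosinophils, basophils and mast cells 4 of 13 genes were tested, among them Mcpt8 at -0.53 ± 0.28 SE and Prg2 at -0.28 ± 0.63 SE.

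Of 12 genes of proliferation 0 were called, with a median log2 fold change of -0.16 and a log2 fold change above 0 in 2 genes. At unadjusted p below 0.05, 0 were higher and 3 lower, where 1292 and 1272 of 15478 tested genes were. Every knockout was below every wild type in 3 genes, Mki67 among them, and above in 0, where 10.4% and 11.5% of all tested genes were. Mki67, a marker of dividing cells, had 149, 138 and 150 CPM in the knockouts, against 173, 201 and 160 CPM in the wild types, and Top2a, a topoisomerase of dividing cells, had 133, 124 and 136 CPM against 156, 172 and 129 CPM.

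The genes beside the members on the chromosomes were looked at in the same fit. Of the 16 nearest tested genes that are not members, 0 were called and 2 passed at unadjusted p, S100a6 (log2 fold change -0.33) and Ptpn23 (-0.15), where 16.6% of all tested genes did. Their log2 fold changes ran from -0.53 (Mcpt8, beside Ctsg) to 0.60 (Gm9023, beside S100a9). Ptbp1, the neighbour of Prtn3, had 293, 306 and 280 CPM in the knockouts, against 293, 319 and 290 CPM in the wild types. Klhl18, the neighbour of Ngp, had 40.6, 41.9 and 41.6 CPM in the knockouts, against 43.4, 40.9 and 42.4 CPM in the wild types.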

How the data were processed

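RNA-seq of flushed femur marrow was analysed from 3 P2rx7 knockout and 3 wild-type mice, grouped by the genotype labels. The libraries were made with a SMARTER mRNA kit, per the labels' protocols. GRCm38 and mm10 are named in the submitters' processing notes, while for aligner, counter and strand setting the sources used here give nothing. Raw counts and FPKM per gene came in 1 table that the authors deposited. The deposited FPKM were recomputed from counts, gene length and an effective size per library, and 100% of values above 0 matched within a relative 1e-04.

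Counts were tested with edgeR 4.0.16 (R 4.3.3) by filterByExpr, TMM scaling and a two-sided quasi-likelihood test, with Benjamini-Hochberg adjustment over 15478 genes and a threshold of 0.05. CPM are TMM-scaled, and log2 CPM have a prior count of 2. The edgeR fit was tried on simulated counts with the same dispersion for every gene, which does not cover genes as variable as the members. Alternatives used other scalings, no filter, DESeq2 1.42.0, limma 3.58.1 (voom, and log2 FPKM with pseudocounts of 1 and 0.1), each library left out, and knockout A alone.

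The members and lists were chosen with earlier results of these data known, and so was the choice to set knockouts B and C apart. Named genes were all members, from each list the called genes (at most 4) or the 2 of highest level, the nearest tested genes, the 3 most alike per set, and P2rx7. The neighbours are given mainly as a range. Genes named beside these, including Srgn, Ly6g, Cxcr2, Hbb-bs, C1qa, Csf3, Csf2, Gh and Alb, were chosen after their values were seen. The knockouts are lettered and the wild types numbered, so no samples were paired.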

Additional observations from a re-analysis of the deposited data

How the results depend on the processing

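No paired analysis was possible because knockout libraries carry letters and wild-type libraries carry numbers. The azurophil minus later level, 2.38, kept its direction in every alternative that gave it, and moved by less than the spread between replicates. These included each library left out (2.08 to 2.82), the summed FPKM (2.42), log2(FPKM + 1) (2.17) and no Prtn3 (2.37, chosen after seeing the data). Leaving out Lcn2, S100a8 and S100a9 gave 2.61. No value of the level was computed with DESeq2, limma-voom or a term for knockouts B and C against the rest. Library scaling nearly cancels in a difference taken within a library, so the other scalings could not test this level. The number of genes called, 16, was 970 with no count filter, 496 with DESeq2, 6 with limma-voom, 10 with limma on log2(FPKM + 1), 2 on log2(FPKM + 0.1) and 0 to 172 with 1 library left out: 8, 0 and 0 without knockouts A, B and C, and 5, 45 and 172 without WT 1, 2 and 3. It was 0 with knockout A alone (668 genes at unadjusted p below 0.05) and 0 with a term for the set of libraries, knockouts B and C against the rest (894 at unadjusted p; chosen after seeing the data). Other scalings left 16 called and moved the median of all genes to at most 0.02. Members called were 0, and 3 with no count filter (Mpo, Prtn3 and Ctsg); the cause was not tested. Signs turned for the azurophil genes with knockout A alone (Mpo -0.16, Elane -0.89, Prtn3 -0.25, Ctsg -0.29) and with the term for the set of libraries (Mpo -0.16, Elane -0.89, Prtn3 -0.25, Ctsg -0.29), where that term takes up knockouts B and C and leaves knockout A to set the genotype effect. With 1 library left out, the log2 fold change ran from -0.59 to 0.15 for Lcn2, from -0.50 to 0.43 for S100a8 and from -0.86 to 0.053 for S100a9, the sign turning without knockout A for all 3, without WT 3 for Lcn2 and S100a8, and without WT 1 for S100a8. It ran from 1.27 (without WT 2) to 2.84 (without WT 3, edgeR adjusted p = 0.0895) for Mpo, from 0.86 (without knockout B) to 2.83 (without WT 3) for Elane, from 1.25 (without knockout B) to 2.76 (without WT 3) for Prtn3 and from 1.11 (without knockout B) to 2.64 (without WT 3) for Ctsg. It ran from -1.54 (without knockout C) to -0.58 (without knockout A) for Ltf, from -1.15 (without WT 2) to -0.32 (without knockout A) for Ngp and from -0.75 (without WT 2) to -0.16 (without knockout A) for Camp. Camp rests on 42 to 128 counts a library, and with 3 mice per genotype the azurophil intervals span over 3 log2 units.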
